A study of Mus musculus with 35 samples.

Results

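The comparison described here set 7 lactate-treated mouse peritoneal macrophages against 6 untreated ones, each of them a single cell whose libraries held few fibroblast transcripts. They were 13 of the 16 cells of the lactate experiment and 13 of the 35 cells of the series. All 13 were adherent primary cells from the abdominal cavity of 6-month-old male C57BL/6 mice. The lactate cells were kept for 72 h with 10 mM lactate, and the controls had no lactate or inhibitor that the labels name. In both groups a small volume of cytoplasm was drawn into a nano-capillary for metabolite measurement, and the remainder of the cell went into a SMART-seq2 library, a procedure the study calls scMeT-seq. Reads were counted per gene and are given here as CPM, the cell's counts scaled to a total of 1000000. The labels name no animal or culture behind a cell, so each condition counted as 1 sample, no test between them was possible, and no p-value is given.

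Lactate is the end product of glycolysis in cells that do not oxidise pyruvate, and it crosses the plasma membrane with a proton through monocarboxylate transporters. Inside the cell lactate dehydrogenase turns it back into pyruvate, which can feed the tricarboxylic acid (TCA) cycle. Macrophages meet it in inflamed, hypoxic and tumour tissue, where it is known to shift them between inflammatory and repair-like programmes. Resident peritoneal macrophages clear dead cells and are a main local source of complement C1q.

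The 13 cells were chosen by their own reads. The summed CPM of 5 fibroblast genes, the collagens Col1a1, Col1a2 and Col3a1, the matrix protein Sparc and the proteoglycan Dcn, was set beside that of 4 macrophage markers, lysozyme Lyz2, the CSF1 receptor Csf1r, the F4/80 antigen Adgre1 and the scavenger receptor Cd68. Among the cells kept, the fibroblast sum ran from 0 to 2.15% of the macrophage sum, with CTL31 the highest at 986 CPM. The nearest cell left out was Lactic29 at 24.2%, followed by CTL30 at 31.9%, and in CTL32 the fibroblast sum exceeded the macrophage sum. Reads of Dcn remained in 9 of the 13 cells, up to 812 CPM in Lactic30, and Col1a1 reads remained in 3. These values chose the cells and describe them only.

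**Figure D1:**
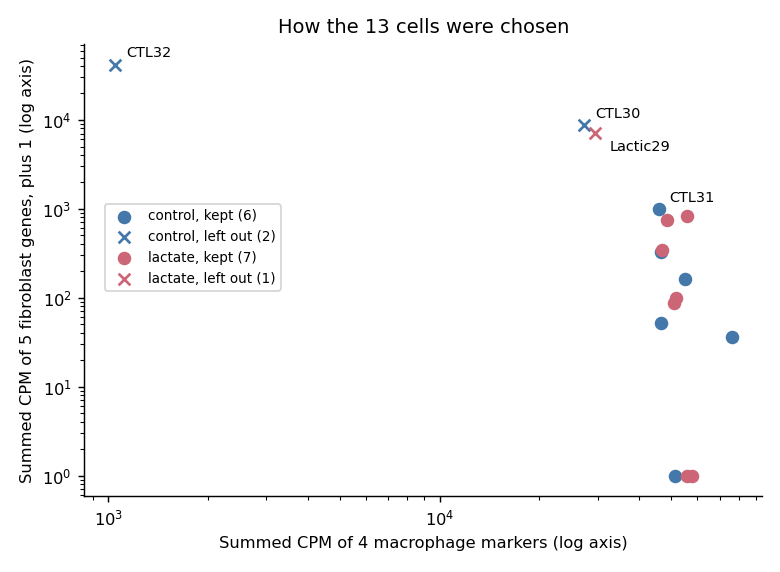
Summed CPM of the 4 macrophage markers (horizontal, log axis) against that of the 5 fibroblast genes plus 1 (vertical, log axis), with 1 point for each of the 16 cells of the experiment. Circles are the 13 cells kept and crosses the 3 left out. The kept cells lie at or below 986 CPM of fibroblast genes, and Lactic29, the nearest cell left out, lies at 7140 CPM.

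The 4 macrophage markers, which the choice of cells used, describe the cells only. All 4 were detected in all 13 cells, and their summed CPM ran from 45835 to 76072 in controls and from 46899 to 57631 with lactate. No B cell, T cell, mast cell, mesothelial or dendritic cell marker had enough reads to be tested. Ms4a1, Cd3d, Cd3e, Cd3g and Msln were at 0 in every cell, as were all 5 mast cell markers. Of the neutrophil list only S100a8 was abundant, at 206 CPM in controls and 109 CPM with lactate, while S100a9, Cxcr2 and Retnlg were at 0. The list of large, resident peritoneal macrophage genes was uneven. Of its 16 genes, Cd5l, Alox15 and Fcna were at 0, Gata6 was detected in 1 cell and Timd4 in 3, while Saa3, F10 and Ltbp1 were detected in all 13 cells and Prg4 in 12. Saa3 held most of the reads, at 12805 CPM in controls and 15147 CPM with lactate. Of 8 tested genes of the list, 3 were at least 2-fold higher with lactate (15.6% of all genes) and 1 at least 2-fold lower (11.2%), with a median log2 ratio of 0.62. Of 8 small peritoneal macrophage genes, 6 were at 0, Ccr2, Irf4 and Retnla among them. Mrc1 had 44 counts in 2 cells, up to 71.4 CPM in CTL31, at 20.1 CPM in controls and 0 with lactate. Folr2 had 2 counts, in CTL31. A wider fibroblast list of 14 genes had 6 at 0, and most of its reads came from fibronectin, Fn1, which macrophages also make, at 2943 CPM in controls and 3563 CPM with lactate.

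Totals ran from 269393 to 459859 counts per cell, 2185477 in controls and 2631542 with lactate in all. The number of genes detected ran from 3392 in CTL27 to 9590 in CTL33, and with every cell thinned to 269393 counts from 3392 to 9187, so that CTL27 held fewer genes for its depth than any other cell. The Spearman correlation over the genes tested had a median of 0.47 between control cells, 0.53 between lactate cells and 0.50 across the groups, a description in which cells share the base composition and length of the same genes. A cell thus resembled cells of its own group about as much as those of the other.

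Across 7724 genes tested, 1208 (15.6%) had summed CPM at least 2-fold higher with lactate and 864 (11.2%) at least 2-fold lower, with a median log2 ratio of 0.04. A gene was tested if it had 1 count or more in over 50% of the cells of a group and 10 counts or more in all. Log2 ratios are of summed CPM, lactate over control, and their 95% intervals are exact binomial ones that cover counting error of reads only. Genes past 2-fold were mostly scarce, with median summed counts of 113 for those higher and 133 for those lower beside 203 for all genes tested. Among the 1573 genes detected in all 13 cells, 46 (2.92%) were at least 2-fold higher and 53 (3.37%) at least 2-fold lower. The balance between the directions depended on the cells used. Without CTL27, 1159 genes were higher and 1197 lower, and without Lactic32, 980 and 943. Over all 16 cells of the experiment there were 870 and 893.

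**Figure D2:**
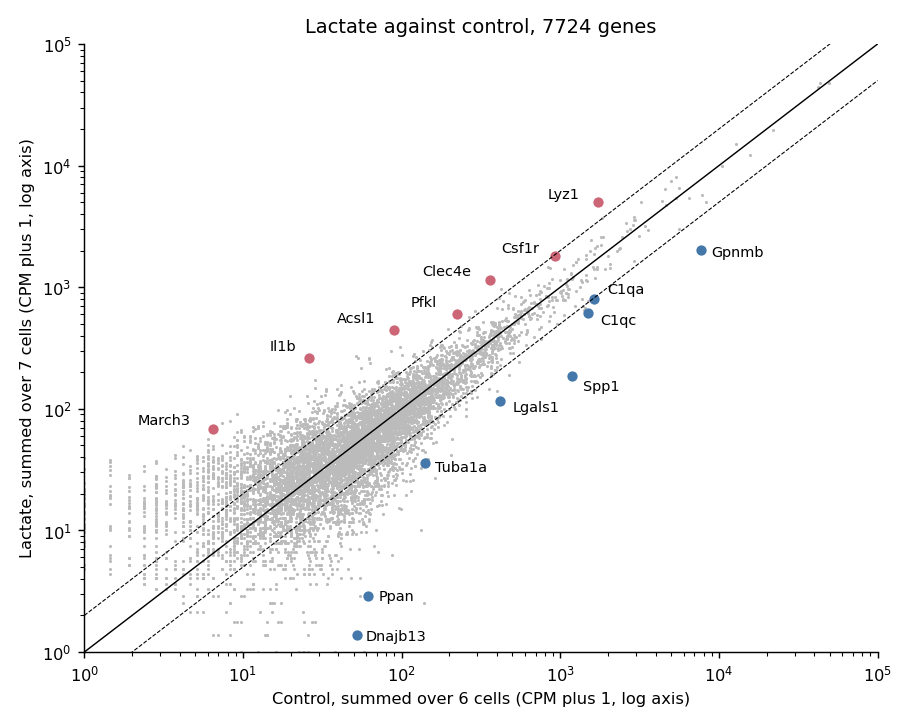
Summed CPM plus 1 of each of the 7724 genes in the 6 control cells (horizontal, log axis) and the 7 lactate cells (vertical, log axis). The solid line marks equal levels and the dashed lines 2-fold differences, and coloured points are genes named in the text. Gpnmb, at 7659 CPM in controls and 2024 CPM with lactate, is the most abundant labelled gene below the lower dashed line, and Lyz1 the most abundant above the upper one.

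The subunits of complement C1q were lower with lactate, here and in a separate set of whole cells. C1qa, C1qb and C1qc encode the 3 chains of the molecule that starts the classical complement pathway, and lie next to each other on mouse chromosome 4 (GRCm38; C1qa at chr4:136895917-136898803, C1qb at chr4:136880129-136886187, C1qc at chr4:136889804-136893065). The summed CPM of the 3 genes was 5542 in CTL27, 6417 in CTL28, 4271 in CTL31, 3618 in CTL33, 4915 in CTL34 and 2209 in CTL35. With lactate it was 1818 in Lactic27, 3136 in Lactic28, 2875 in Lactic30, 775 in Lactic31, 2514 in Lactic32, 726 in Lactic33 and 2726 in Lactic34. Only CTL35 among the controls lay within the lactate range, and a lactate cell was the higher in 4 of 42 lactate-control pairs. The log2 ratio of the sum was -1.10 (95% interval -1.15 to -1.06), and between -1.24 and -0.93 without any 1 cell, so that leaving out CTL28 (-0.94) or Lactic33 (-0.93) took it under 2-fold, and leaving out Lactic31 took it just under. By chain, the ratio was -1.05 (-1.13 to -0.97) for C1qa, -0.99 (-1.08 to -0.91) for C1qb and -1.28 (-1.37 to -1.20) for C1qc. C1qa was at -0.84 without CTL28, -0.92 without Lactic31 and -0.91 without Lactic33, while C1qc stayed past 2-fold without each cell in turn, at -1.10 or further from 0.

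Of 13 tested genes of the complement list, 4 were at least 2-fold lower (C1qa, C1qc, C1ra and Cr1l), beside 11.2% of all genes, and 0 at least 2-fold higher, beside 15.6%, with a median log2 ratio of -0.40. Cfb, the protease of the alternative pathway, had the other direction and a ratio of 0.83 (0.75 to 0.91), with a median cell of 800 CPM in controls and 1445 CPM with lactate. The groups overlapped for Cfb, since Lactic31 held 242 CPM, below every control.

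Gpnmb, Spp1 and Lgals1, which mark lipid-laden, repair-associated macrophages, were lower with lactate. Of 21 tested genes of that list, 4 were at least 2-fold lower (11.2% over all genes) and 0 at least 2-fold higher (15.6%), 2 had a ratio above 0 (52.4% over all genes), and the median log2 ratio was -0.34. Gpnmb, a lysosomal and cell surface glycoprotein (chr6:49036546-49070929), held 2981, 12759, 1535, 10798, 13260 and 1266 CPM in CTL27, CTL28, CTL31, CTL33, CTL34 and CTL35. With lactate it held 86.8, 547, 2045, 886, 505, 7342 and 2115 CPM in Lactic27, Lactic28, Lactic30, Lactic31, Lactic32, Lactic33 and Lactic34. CTL28, CTL33 and CTL34 lay above every lactate cell, while CTL27, CTL31 and CTL35 lay within the lactate range, whose highest cell was Lactic33. Its log2 ratio was -1.92 (-1.96 to -1.88), -2.96 without Lactic33 and -1.65 without CTL28.

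Spp1, which encodes the secreted phosphoprotein osteopontin (chr5:104435118-104441050), ran from 88.9 to 3234 CPM in controls with a median of 998 CPM, and from 11.5 to 391 CPM with lactate with a median of 107 CPM. CTL31, CTL33, CTL34 and CTL35 lay above every lactate cell and CTL27 and CTL28 did not, and the log2 ratio was -2.68 (-2.83 to -2.54). Lgals1, the galactose-binding lectin galectin-1, ran from 208 to 659 CPM in controls and from 6.52 to 218 CPM with lactate, with a ratio of -1.85 (-2.05 to -1.67). For Lgals1 a lactate cell was the higher in 2 of 42 pairs, the overlap being CTL27 with Lactic27 and Lactic31.

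The other members of the list differed less. Atp6v0d2, a subunit of the lysosomal proton pump, had a ratio of -1.25, which was -0.71 without CTL33, -0.92 without CTL34, -0.98 without Lactic32 and -3.32 without Lactic33. The lipid carrier Apoe had a ratio of -0.89 and ranged from 150 to 12666 CPM among controls and from 253 to 6758 CPM with lactate. The fatty acid binding protein Fabp5 had a ratio of -0.79 (-0.87 to -0.71). Trem2, the lipid-sensing receptor that defines such cells in several tissues, was level, at -0.03 (-0.14 to 0.07).

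**Figure D3:**
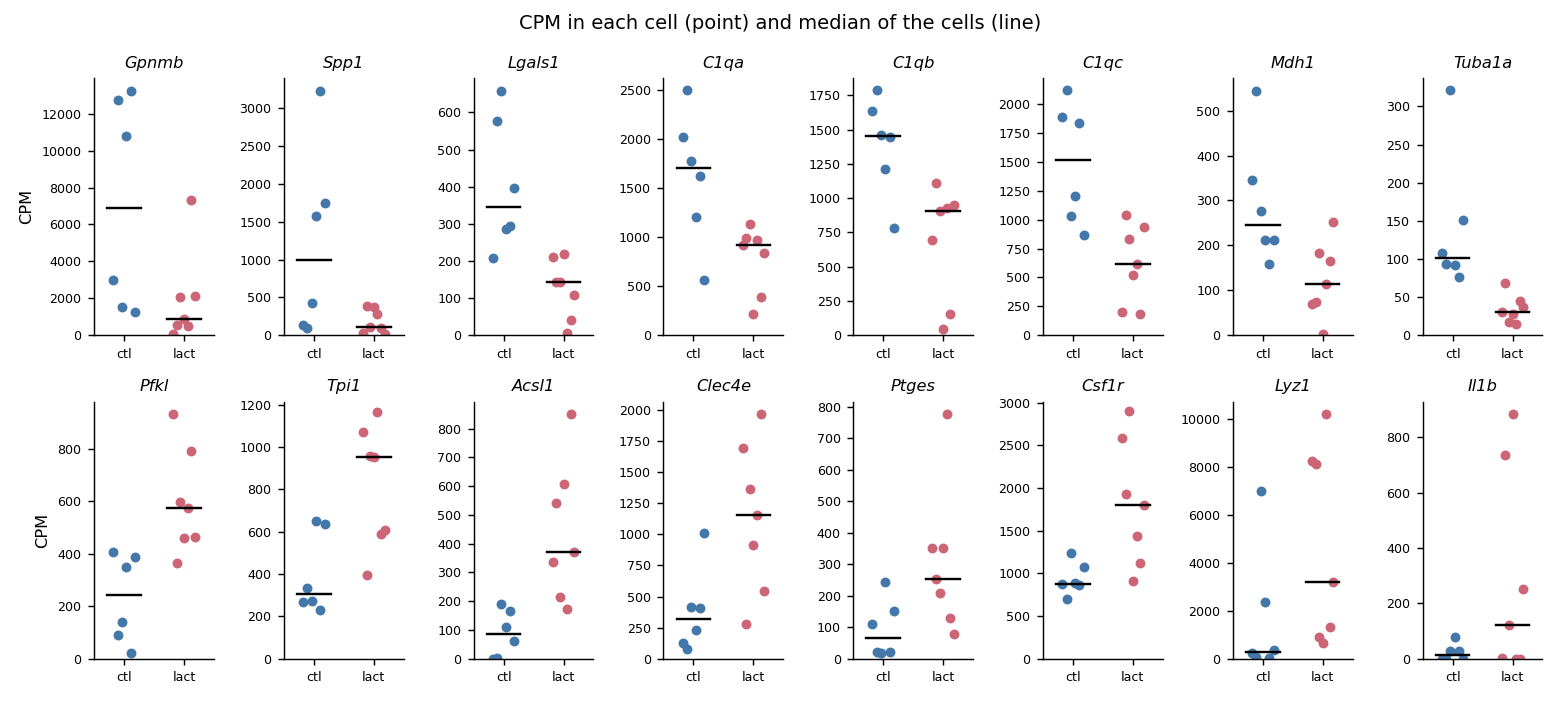
CPM of 16 genes in each of the 6 control (ctl) and 7 lactate (lact) cells, with a linear axis from 0 for each gene; points are cells and the line is the median of the group's cells. The upper row holds genes lower with lactate and the lower row genes higher with lactate. Tuba1a is the only panel in which the groups do not overlap, and Il1b the panel in which 3 lactate cells lie at or near 0.

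Most genes of glycolysis had a ratio above 0, but the share past 2-fold was near that of all genes. Of 16 tested genes, 3 were at least 2-fold higher, beside 15.6% of all genes, and 0 at least 2-fold lower, beside 11.2%, 14 had a ratio above 0, beside 52.4% of all genes, and the median log2 ratio was 0.48, beside 0.04 over all genes. Leaving out any 1 cell moved that median between 0.38 and 0.63. The summed CPM of the list ran from 6298 to 16782 in controls, with CTL27 the highest cell of all, and from 10298 to 15701 with lactate.

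Pfkl, the liver-type phosphofructokinase that commits sugar to the pathway (chr10:77986947-78010083), held 408, 91.2, 140, 348, 23.5 and 387 CPM in CTL27, CTL28, CTL31, CTL33, CTL34 and CTL35. With lactate it held 933, 366, 596, 460, 576, 791 and 464 CPM in Lactic27, Lactic28, Lactic30, Lactic31, Lactic32, Lactic33 and Lactic34. Lactic28 alone lay within the control range, and the ratio was 1.43 (1.28 to 1.58). Tpi1, triose phosphate isomerase, ran from 232 to 651 CPM in controls and from 395 to 1166 CPM with lactate, with a ratio of 1.00 (0.88 to 1.11) just under 2-fold. Hk2, the inducible hexokinase, had a ratio of 1.96 (1.49 to 2.45) at a low level, 21.0 CPM in controls and 81.7 CPM with lactate, and Pfkfb3, which makes the activator of phosphofructokinase, had 1.15 (0.85 to 1.46). Without CTL33 the Hk2 ratio was 2.77, and that of Pfkfb3 was 0.82 without CTL28 and 0.80 without Lactic27. The abundant enzymes differed less, with ratios of 0.31 for pyruvate kinase Pkm, 0.39 for enolase Eno1, 0.77 for Pgk1 and, outside the list, 0.33 for lactate dehydrogenase Ldha.

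Several glycolytic genes are textbook targets of hypoxia inducible factor, whose core motif is ACGTG. The RefSeq promoters (GRCm38.p6, 250 bases before to 50 after each start, on the gene's strand) of 18 genes of the glycolysis list were searched for it on both strands, with matches allowed to overlap. They held it in 15 of 29 promoters (51.7%), beside 6447 of 32851 promoters of all genes (19.6%). Where a gene has several promoters, the 1 with the most matches is printed here. Those of Hk2, Pgk1 and Ldha, the last of them outside the list, show the motif. That of Pfkl, the member past 2-fold with the most reads, has no match in this window. The Ldha window starts at 46845554, downstream of the annotated start of the gene at 46841475. The motif is in capitals, as ACGTG or its reverse complement CACGT.
Hk2, chr6:82774405-82774704, minus strand: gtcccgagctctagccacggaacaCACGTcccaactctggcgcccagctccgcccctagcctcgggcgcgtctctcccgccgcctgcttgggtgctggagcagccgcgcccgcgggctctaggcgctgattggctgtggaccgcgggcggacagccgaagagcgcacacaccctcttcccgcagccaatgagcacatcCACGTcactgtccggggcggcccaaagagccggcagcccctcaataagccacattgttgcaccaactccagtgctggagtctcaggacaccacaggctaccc
Pgk1, chrX:106186850-106187149, plus strand: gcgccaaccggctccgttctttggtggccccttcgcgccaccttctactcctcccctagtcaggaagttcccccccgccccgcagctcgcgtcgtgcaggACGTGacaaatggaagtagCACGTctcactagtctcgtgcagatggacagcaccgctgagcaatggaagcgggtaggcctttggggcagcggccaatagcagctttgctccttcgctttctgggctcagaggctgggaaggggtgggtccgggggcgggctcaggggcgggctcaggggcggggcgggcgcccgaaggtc
Ldha, chr7:46845554-46845853, plus strand: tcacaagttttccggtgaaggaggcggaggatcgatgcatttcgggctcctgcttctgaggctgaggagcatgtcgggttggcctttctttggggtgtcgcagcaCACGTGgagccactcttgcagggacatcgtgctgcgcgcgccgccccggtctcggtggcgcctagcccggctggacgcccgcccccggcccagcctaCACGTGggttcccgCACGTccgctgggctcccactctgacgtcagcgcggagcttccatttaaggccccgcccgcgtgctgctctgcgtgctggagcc
Pfkl, chr10:78009758-78010057, minus strand: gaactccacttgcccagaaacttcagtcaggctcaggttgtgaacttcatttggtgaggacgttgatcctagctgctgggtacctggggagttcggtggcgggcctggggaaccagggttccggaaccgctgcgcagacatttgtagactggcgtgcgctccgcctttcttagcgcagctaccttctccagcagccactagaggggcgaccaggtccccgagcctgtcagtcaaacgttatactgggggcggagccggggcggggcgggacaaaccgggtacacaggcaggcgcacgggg
A match is a description of the letters, and no binding was measured in these cells.

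The wider list of hypoxia-responsive genes had 4 of 17 tested genes at least 2-fold higher (15.6% of all genes) and 0 at least 2-fold lower (11.2%), with a median log2 ratio of 0.44. Hif1a itself, which encodes a subunit of hypoxia inducible factor, had no counts in any of the 13 cells, and the reason was not tested. The study stained lactate-treated macrophages for HIF1a protein and reported no evidence of hypoxia. Vegfa, the vascular growth factor, had a ratio of 2.08 (1.69 to 2.48), with a median cell of 5.88 CPM in controls and 97.5 CPM with lactate. Pdk1, the kinase that shuts pyruvate out of the TCA cycle, had 2.44 (2.04 to 2.85) and was detected in 3 of 6 controls and 6 of 7 lactate cells. Both rested on few reads in controls, and CTL35 alone held 144 CPM of Vegfa, so that without it the ratio was 3.64. Without CTL28 the Pdk1 ratio was 3.49.

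Genes that carry lactate and pyruvate had no common direction. Of 15 tested genes of that list, 1 was at least 2-fold higher with lactate (Pdk1), beside 15.6% of all genes, and 4 at least 2-fold lower, beside 11.2%, with a median log2 ratio of 0.03. The monocarboxylate exporter Slc16a3 held 307 CPM in controls and 402 CPM with lactate, a ratio of 0.39 (0.25 to 0.53), and 1.67 without CTL27. Bsg, the chaperone of these transporters, was at -0.11 (-0.23 to 0.01), and the monocarboxylate transporter Slc16a1 did not pass the filter on detection. Mpc1, a subunit of the mitochondrial pyruvate carrier, had 29 counts in 4 of 6 controls and 1 count in Lactic32, a ratio of -5.13 with an interval from -10.48 to -2.53, and -4.44 without CTL31. Without Lactic32 no lactate count was left, and 3 counts in its place bound the ratio at -3.26 or lower. Its partner Mpc2 was at -0.35 (-0.73 to 0.03). Pdhx, which anchors a subunit of the pyruvate dehydrogenase complex, had 56 counts in controls and 7 with lactate, a ratio of -3.27 (-4.65 to -2.13), and -5.83 without Lactic28. Ldhb, the heart-type subunit of lactate dehydrogenase, had -1.12 (-1.50 to -0.75), but lay between -0.96 and -0.85 without CTL28, CTL31, CTL34, Lactic27, Lactic30 or Lactic31.

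Genes of the TCA cycle went both ways. Of 20 tested genes, 4 were at least 2-fold lower (11.2% of all genes), 2 at least 2-fold higher (15.6%), 7 had a ratio above 0 (52.4%), and the median log2 ratio was -0.42. The summed CPM ran from 2323 to 3082 in controls and from 958 to 2653 with lactate, and a lactate cell was the higher in 5 of 42 pairs. Mdh1, the cytosolic malate dehydrogenase of the malate-aspartate shuttle, ran from 159 to 545 CPM in controls and from 3.46 to 252 CPM with lactate. Its ratio was -1.26 (-1.45 to -1.07), and -0.91 without CTL28. Suclg1, a subunit of succinyl-CoA ligase, ran from 86.0 to 215 CPM in controls and from 0 to 109 CPM with lactate, with a ratio of -1.69 (-2.01 to -1.37) and 2 of 42 pairs higher with lactate. The 2 main subunits of succinate dehydrogenase differed in direction: Sdhb was lower by just under 2-fold (log2 interval -1.24 to -0.76) and Sdha had a ratio of 1.02 (0.81 to 1.24), the latter 0.83 without CTL27, 0.69 without CTL28, 0.71 without Lactic30 and 0.94 without Lactic34.

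Transcripts encoded by the mitochondrial genome were lower in sum, but CTL31 carried much of the difference. All 13 protein-coding genes of the mitochondrial genome had a ratio below 0, while 52.4% of all genes had one above 0. Of the 13, 4 were at least 2-fold lower, beside 11.2% of all genes, and the median log2 ratio was -0.86. Their pooled share of counts was 1.51% (exact 95% interval 1.50 to 1.53) in controls and 0.874% (0.862 to 0.885) with lactate. By cell the share was 0.534 to 3.40% in controls and 0.529 to 1.35% with lactate, with CTL31 at 3.40% and CTL27 and CTL28 at the low end. Without CTL31 the pooled control share was 1.14% and the median log2 ratio of the list -0.39. The left-out cells CTL30 and Lactic29, which hold fibroblast reads, had 3.31% and 2.26%, and CTL31 was the kept cell with the most fibroblast reads; the part of that in the result was not tested. The ratio of mt-Co1, which belongs to complex IV, was -0.71 (-0.39 without CTL31), that of mt-Nd1, of complex I, was -1.09 (-0.56, and -0.96 without Lactic33), and that of mt-Cytb, of complex III, was -1.34 (-0.69). Subunits of the respiratory chain encoded in the nucleus were close to level, with a median log2 ratio of -0.16 over 63 genes. Of these, 1 was at least 2-fold higher (15.6% of all genes) and 0 at least 2-fold lower (11.2%).

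**Figure D4:**
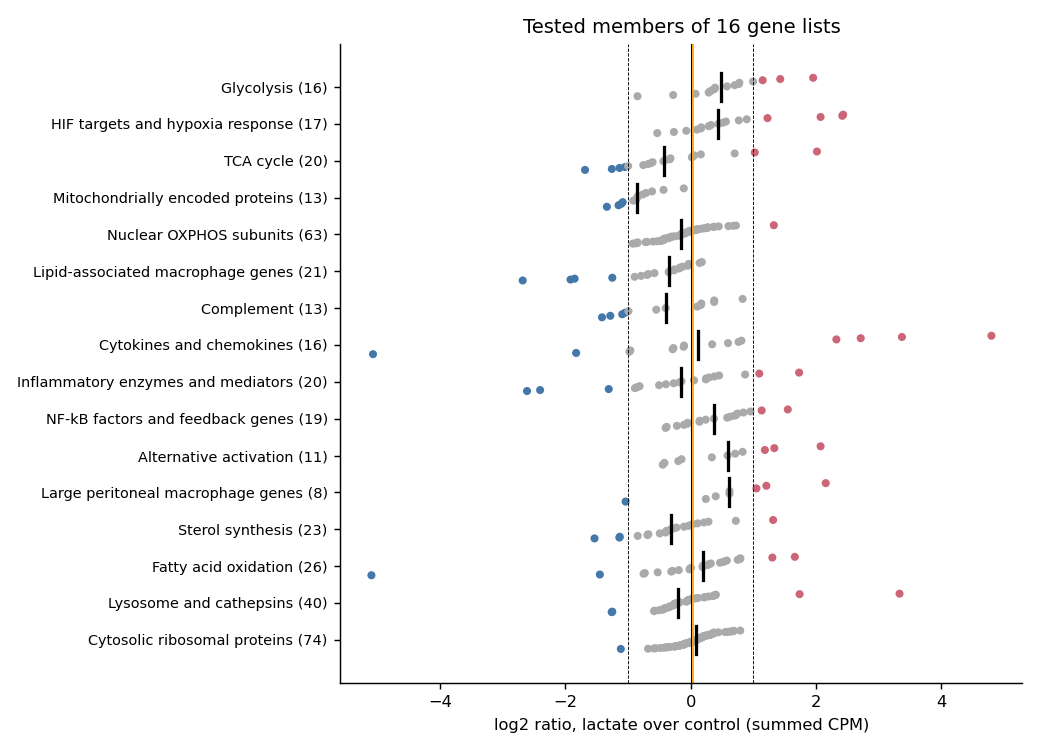
Log2 ratio, lactate over control, of each tested member (points; number in brackets) of 16 gene lists, with the list's median as a black bar. Dashed lines mark 2-fold differences and the orange line the median of all 7724 genes, 0.04. Glycolysis, at 0.48, and the mitochondrially encoded genes, at -0.86, lie on opposite sides of it.

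Inflammatory genes had no common direction. Of 16 tested cytokines and chemokines, 4 were at least 2-fold higher (15.6% of all genes) and 2 at least 2-fold lower (11.2%), with a median log2 ratio of 0.12. Il1b, the precursor of interleukin 1 beta (chr2:129364570-129371139), held 0, 0, 27.5, 80.2, 29.4 and 0 CPM in CTL27, CTL28, CTL31, CTL33, CTL34 and CTL35. With lactate it held 2.80, 737, 122, 882, 0, 0 and 252 CPM in Lactic27, Lactic28, Lactic30, Lactic31, Lactic32, Lactic33 and Lactic34. The ratio of 3.37 (2.98 to 3.80) therefore came from 4 of 7 lactate cells, and was 2.78 without Lactic28 and 4.51 without CTL33. Of 20 enzymes and mediators of inflammation, 2 were at least 2-fold higher and 3 lower, beside the same shares of all genes. Ptges, the terminal synthase of prostaglandin E2, had a ratio of 1.73 (1.51 to 1.96), and 2.44 without CTL33, which held 245 CPM. Ptgs1, the constitutive cyclooxygenase upstream of it, had -1.31 (-1.49 to -1.13). Acod1, which makes itaconate, had 1.10 (0.96 to 1.24), but 2 controls were at 0 and CTL34 held 890 CPM. Its ratio was 1.92 without CTL34, 0.91 without CTL27, 0.76 without CTL28, 0.86 without CTL31, 0.95 without CTL33 and 0.74 without Lactic28.

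Clec4e, the receptor Mincle for damaged cells and mycobacterial glycolipid, ran from 80.0 to 1008 CPM in controls and from 276 to 1969 CPM with lactate. Its ratio was 1.66 (1.55 to 1.78), a lactate cell was the higher in 37 of 42 pairs, and CTL35 was the control far inside the lactate range. Of 19 factors and feedback genes of NF-kB, 2 were at least 2-fold higher (15.6% of all genes) and 0 lower (11.2%), with a median log2 ratio of 0.37. Sod2, the mitochondrial superoxide dismutase induced by that pathway, had a ratio of 0.75 (0.67 to 0.83) and was the higher with lactate in 36 of 42 pairs. Arg1, the arginase of alternatively activated macrophages, was uniform with lactate, between 7551 and 8672 CPM in all 7 cells, and ranged from 1502 to 12309 CPM in controls, with a ratio of 0.59 (0.56 to 0.62).

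Csf1r, a macrophage gene that the choice of cells used, held 705 to 1233 CPM in controls and 917 to 2896 CPM with lactate, a description that supports nothing further. Lyz1 had a ratio of 1.52, but its sequence is close to that of Lyz2, so that reads may be shared, and it was 2.86 without CTL31. The level of Lyz2 itself differed by -0.04.

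Among lipid genes, Acsl1 was higher with lactate. It activates long-chain fatty acids with coenzyme A (chr8:46471037-46536051). It held 0, 2.22, 190, 110, 167 and 61.5 CPM in CTL27, CTL28, CTL31, CTL33, CTL34 and CTL35, and 336, 542, 216, 609, 174, 849 and 373 CPM in Lactic27, Lactic28, Lactic30, Lactic31, Lactic32, Lactic33 and Lactic34. Only Lactic32 lay below the highest control, and the ratio was 2.31 (2.09 to 2.54), with 1.99 the lowest without any 1 cell. The lists of fatty acid oxidation, with 2 of 26 genes at least 2-fold higher and 2 lower, and of sterol synthesis, with 1 of 23 higher and 3 lower, had medians of 0.19 and -0.32, beside 15.6% higher and 11.2% lower over all genes.

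The study named 8 lipid genes by their levels in states along its pseudotime path for lactate treatment, not by lactate against control. The ratios here are of another contrast and do not test that description. The choice was also made on these cells and so is no independent evidence of direction. Of the 8 genes, 5 were tested here, 1 at least 2-fold higher (15.6% of all genes) and 1 at least 2-fold lower (11.2%). Abcd2, a peroxisomal fatty acid transporter, had a ratio of 1.66 (1.35 to 1.99), 2.66 without CTL28. Abcg1, a cholesterol exporter, had -1.03 (-1.45 to -0.62), but CTL33 held 243 of its CPM and without that cell the ratio was 0.83. Leaving out Lactic27 (-0.82), Lactic30 (-0.93), Lactic31 (-0.87) or Lactic32 (-0.76) took it under 2-fold. Lpl, the lipoprotein lipase, was at 0.14, Daglb at -0.53 and Hsd17b7 at 0.03, and each turned sign with 1 cell left out. Lpl was at 1.14 without CTL33 and -0.62 without Lactic34, Daglb at 0.20 without CTL33, 0.08 without CTL28 and -1.22 without Lactic34, and Hsd17b7 at 1.19 without CTL27 and -0.53 without Lactic31. Abca5, Amacr and Fasn did not pass the filter on detection.

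By the rule that ranked ratios, the 15 highest genes were March3 (3.62), Lsm14a (3.55), Cep70 (3.45), Sil1 (3.44), Cdc42bpb (3.43), Il1b, Plekhn1 (2.95), Ccz1 (2.94), Mnat1 (2.88), Gys1 (2.86), Agpat2 (2.73), Nudt4 (2.72), Otud5 (2.72), Cadps2 (2.69) and Ksr1 (2.65). They include muscle-type glycogen synthase (Gys1) and an acyltransferase of triglyceride and phospholipid synthesis (Agpat2). Gys1 held 13.8 to 118 CPM in the 7 lactate cells and 0 to 30.7 CPM in the controls, 3 of which had none. The remaining genes of this group, Il1b apart, lay between 5.03 and 11.4 CPM in controls, so that their ratios rest on few reads there, most of them in CTL31, CTL33 or CTL35. Leaving out 1 of those controls moved every one of these ratios but that of Otud5 further from 0, by more than 1.5 times. The nearest to 0 that any cell left out brought them was 2.12, for Nudt4 without Lactic31, followed by 2.13 for Cadps2.

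Of the 15 lowest, 14 are named here: Dnajb13 (-7.08), Ppan (-4.99), Papss2 (-3.36), Ctif (-3.11), Smc4 (-2.89), Plekho1 (-2.76), Spp1, Mrgpre (-2.58), Ece1 (-2.58), Stambp (-2.43), Vps50 (-2.33), Coq9 (-2.32), Ms4a8a (-2.30) and Ppp2r5b (-2.29). Dnajb13 had reads in 5 of 6 controls and 1 count in all lactate cells, in Lactic32, so that the interval of its ratio ran from -12.39 to -4.57. Ppan, a ribosome assembly factor, had reads in 5 of 6 controls and in Lactic34 only among lactate cells. Ms4a8a, a membrane protein of the CD20 family, ran from 24.7 to 441 CPM in controls and from 0 to 107 CPM with lactate. Papss2 makes the sulphate donor of sulphotransferases, and Coq9 serves coenzyme Q synthesis. The groups overlapped for each of the 14. The nearest to 0 that any cell left out brought a ratio of this group was -1.81, for Vps50 without CTL27. Leaving out 1 lactate cell (Lactic28, Lactic30, Lactic32, Lactic33 or Lactic34) moved Papss2, Ctif, Plekho1, Mrgpre, Ece1, Stambp, Vps50 and Coq9 further from 0 by more than 1.5 times, and leaving out CTL28 brought Ctif to -2.38 and Dnajb13 to -6.36. Without Lactic32 no lactate count of Dnajb13 was left, and 3 counts in its place bound the ratio at -5.21 or lower.

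Among genes detected in all 13 cells, ranked after their values were seen, the 5 with the highest ratios were Tmtc2 (2.32), Bag1 (2.11), Arl5a (2.08), Klf7 (1.82) and Ptges. Bag1, a co-chaperone of Hsp70, ran from 5.49 to 78.0 CPM in controls and from 76.1 to 181 CPM with lactate, and a lactate cell was the higher in 41 of 42 pairs. Tmtc2 was likewise higher in 41 of 42 pairs, and Lactic31 held 824 CPM of it. Klf7 is a Krüppel-like transcription factor, and Arl5a a small GTPase of the Golgi. The 5 lowest were Spp1, Tuba1a, Gpnmb, Lgals1 and Ankib1.

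Cells of the groups did not overlap for 7 of 7724 genes (0.0906%), also named after their values were seen. In 3 of them (0.0388%) every lactate cell lay above every control cell: Fam20a, Cep112 and the unnamed transcript D130009I18Rik. Fam20a, a pseudokinase of the secretory pathway, had 94 counts over the lactate cells, between 8.70 and 56.1 CPM in each, and 1 count in all controls, so that its log2 ratio of 6.29 had an interval from 3.77 to 11.61. Without CTL33, which held that count, the ratio was at least 4.38 against a floor of 3 counts over the group. Cep112 rested on 12 counts and 1 count, with a ratio of 3.32 (0.56 to 8.73), at least 1.40 without CTL28. In 4 genes (0.0518%) every lactate cell lay below every control cell: Tuba1a, Ankib1, Nme2 and Resf1. Tuba1a, an alpha tubulin, ran from 76.4 to 321 CPM in controls and from 15.2 to 68.3 CPM with lactate, with a ratio of -1.99 (-2.34 to -1.65). Nme2, a nucleoside diphosphate kinase, ran from 187 to 321 CPM and from 20.8 to 157 CPM, with -1.17 (-1.38 to -0.96). Resf1 had -1.36, and -0.93 without CTL28. Tuba1a and Nme2 have near-identical relatives, and reads may be split among them.

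The same genes were read in 5 whole cells, 3 with lactate and 2 controls, which went into SMART-seq2 libraries without cytoplasm being drawn, at 494520 to 851417 counts each, and which share no cell with the 13. Most of the genes with the largest ratios did not have the same direction there. Of the 15 highest genes, 4 had a ratio above 0 in the whole cells (26.7%), beside 42.7% of the 7413 genes tested in both sets. Of the 13 named among the lowest that were tested there, 6 had a ratio below 0, beside 57.3% of all genes. Spp1 went the other way, with 0, 2065 and 3104 CPM in the lactate cells Lactic5, Lactic6 and Lactic7 and 37.6 and 83.8 CPM in the controls CTL4 and CTL8, and Il1b had a whole-cell ratio of -2.67. Nor did Gpnmb (0.73), Pfkl (-0.16), Hk2 (-2.14), Vegfa (-2.25), Pdk1 (-1.13), Pfkfb3 (-1.07), Mdh1 (1.21) or Ptges (0.00) repeat the direction seen in the 13 cells, and Acsl1 was at 0.37 and Clec4e at 0.17. Mpc1 (0.43, from 10 lactate and 6 control counts) and Suclg1 (0.13) likewise did not, while Pdhx (-0.81) and Sdha (0.58) kept their direction. Arg1 (-0.64) and Cfb (-0.59) also had the opposite direction in the whole cells, and for Arg1 every lactate cell lay below both controls. Of the genes whose groups did not overlap in the 13 cells, Fam20a (-0.90), Nme2 (0.41) and Resf1 (0.22) had the opposite direction there. Tuba1a (-0.18) and Ankib1 (-0.74) had the same direction, but the whole cells of the groups overlapped. Cep112 did not pass the filter for testing in the whole cells. Tmtc2 (-0.84), Klf7 (-1.44) and Arl5a (-0.15), among the highest of the genes detected in all 13 cells, had the opposite direction in the whole cells. Bag1 (0.63) had the same direction. By list, the 22 lipid-associated genes tested there had a median log2 ratio of 0.41, with 17 above 0, 6 at least 2-fold higher (13.8% of all genes there) and 2 at least 2-fold lower (25.5%). The 18 hypoxia-responsive genes had a median of -0.14, with 2 at least 2-fold higher and 5 lower, and the 16 glycolysis genes one of 0.09, with 2 in each direction.

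C1q did repeat it. The summed CPM of C1qa, C1qb and C1qc was 1684 in Lactic5, 1348 in Lactic6 and 1428 in Lactic7, beside 6815 in CTL4 and 5331 in CTL8, a log2 ratio of -2.08 (-2.14 to -2.02). In the whole cells every lactate cell lay below both controls for 16.9% of genes tested and above both for 6.56%. Of the 75 genes named in the text that were past 2-fold in the 13 cells and tested in the whole cells, 7 were separated in the same direction there: C1qa, C1qc, Lgals1, Bag1, mt-Cytb, Ldhb and the Fc receptor Fcgr1. Others were separated in the opposite direction. March3, Cdc42bpb, Il1b, Cadps2, Hk2, Abcd2, Tmtc2 and Klf7 lay lower in every whole lactate cell than in both controls. Papss2, Mrgpre, Vps50, Mdh1 and Abcg1 lay higher in every whole lactate cell than in both controls. Lgals1 held 0, 149 and 96.0 CPM with lactate and 182 and 196 CPM in controls. The mitochondrially encoded share was also lower in each whole lactate cell, at 0.622, 0.388 and 0.653% beside 0.684 and 0.732% in controls.

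**Figure D5:**
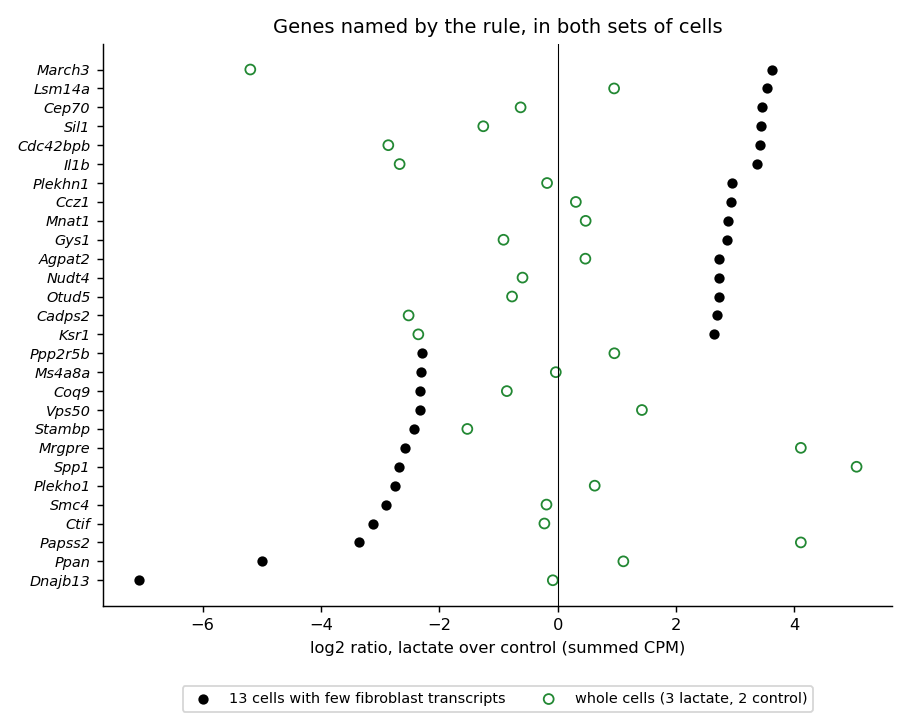
Log2 ratio, lactate over control, of the 28 genes listed in the text by the ranking rule that were also tested in the whole cells; filled points are the 13 cells with few fibroblast transcripts and open points the 5 whole cells (3 lactate, 2 control). Of the 15 genes at the top, 4 open points lie right of 0, and of the 13 below, 6 lie left of it.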

How the data were processed

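Single adherent peritoneal macrophages were read as SMART-seq2 libraries primed with oligo(dT), amplified by 20 PCR cycles and sequenced without molecular identifiers, and whether counting used strand is not given in the sources used here. Per the labels and the study's methods, the authors trimmed reads with fastp (0.20.0), aligned them to mm10 with HISAT2 (2.1.0) and took read counts per gene from StringTie, and they deposited these raw counts as a matrix of 32285 genes by cell. Totals in the 13 cells ran from 269393 to 459859 counts. The cells, the 49 gene lists and the settings were chosen with earlier results of these data known. The libraries of 1 cell each share no cell name with the whole-cell libraries, and no doublet caller was run on cells picked singly.

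For each group, counts of its cells were added up, scaled by their joint total (CPM) and compared as log2 ratios, with exact conditional binomial 95% intervals from scipy (1.17.1). Where a group had no count, 3 counts stood in as its floor. Intervals cover counting error of reads only and leave out differences between cells. PCR copies of a molecule count as separate reads, so the intervals are too narrow for counting error of molecules. The method was tested on simulated counts drawn without PCR copies or differences between cells. That test therefore cannot show how well the intervals cover in these data. The study compared cells with a Wilcoxon test, which was not used, because cells of unnamed origin are not replicates. Named genes were, by rule, the 15 ratios at either end, taken over genes with 50 CPM or more in the higher group, no cell with over 50% of that group's summed CPM, medians in the same order, the same sign without each cell in turn, and no predicted symbol. Members of described lists with the most counts or the largest ratios, the study's 8 lipid genes and the fibroblast genes were also named, while genes detected in all 13 cells or separated between groups were named after their values were seen. Alternatives used mean or median CPM of cells, TMM scaling from edgeR (4.0.16), other filters, all 16 cells, and each cell left out. Aldoa and Ddit3, listed under 2 identifiers each, were left out of the lists. The table of the inhibitor experiment was not used here, and 1 gene of the ranked 30 is not reported here. Gene positions are from GENCODE M21 on GRCm38, the assembly of mm10, and promoters from RefSeq (GRCm38.p6).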

Additional observations from a re-analysis of the deposited data

Results flagged for a closer look

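In 44 of 224 sets of values by group (19.6%), 1 cell stood apart from the others of its group, by a gap to its nearest neighbour beyond Dixon's 95% critical value. The nominal rate of 1 in 20 holds for normally distributed values. Many of these sets hold zeros or are genes picked for extreme ratios, so the share flagged cannot be judged against that rate. Controls made up 26 of these and lactate cells 18, and CTL33 stood apart 7 times, CTL35 and Lactic31 6 times each, CTL31 5 times, and CTL27 and Lactic34 4 times each.

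Among summed lists, CTL34 was high for macrophage markers (76070 CPM), CTL31 for TCA cycle genes (3082 CPM) and Lactic31 for cytosolic ribosomal protein genes (37380 CPM). CTL33 was the high control for Lsm14a (32.08 CPM), Cdc42bpb (25.21 CPM), Il1b (80.2 CPM), Plekhn1 (38.96 CPM), Abcg1 (242.9 CPM), Irf1 (16.04 CPM) and Fam20a (2.292 CPM, 1 count). CTL35 was the high control for Cadps2 (52.24 CPM), Dcn (322.6 CPM), Clec4e (1008 CPM), Vegfa (144.4 CPM), Jun (98.33 CPM) and Dusp1 (129.1 CPM). CTL31 was the high control for Ccz1 (41.2 CPM), Lyz1 (6996 CPM), mt-Atp6 (4070 CPM) and Tuba1a (321.3 CPM). CTL27 was the high control for Hsd17b7 (252.4 CPM), Ankib1 (129.9 CPM), Slc16a3 (1589 CPM) and Bsg (794.4 CPM), CTL28 for Resf1 (231.2 CPM) and Cep112 (2.224 CPM), and CTL34 for Lyz2 (71160 CPM).

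With lactate, Lactic31 was low for Nme2 (20.76 CPM), Slc16a3 (6.92 CPM) and Bsg (134.9 CPM), and high for Cep112 (13.84 CPM) and Tmtc2 (823.5 CPM). Lactic34 was high for Ppan (14.33 CPM), Papss2 (31.53 CPM), Lpl (4738 CPM) and Daglb (137.6 CPM). Lactic33 was high for Cd68 (1945 CPM), Gpnmb (7342 CPM) and Atp6v0d2 (344.4 CPM), Lactic32 for Dnajb13 (2.175 CPM), Mpc1 (2.175 CPM) and Ptges (776.3 CPM), Lactic28 for Pdhx (14.64 CPM), and Lactic30 for Coq9 (56.32 CPM).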

How the results depend on the processing

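The 1208 genes at least 2-fold higher and 864 at least 2-fold lower with lactate depended on which genes were tested and on how cells were averaged. With 100 counts or more required there were 683 and 565, with no detection filter 2085 and 1922, with 5 counts needed for detection 847 and 568, and among genes detected in all 13 cells, a choice made after seeing the data, 46 and 53. The median of per-cell CPM plus 1 gave 1999 higher and 1238 lower, and the cause was not tested. TMM scaling moved every log2 ratio by 0.09 and gave 1340 and 756. All 16 cells gave 870 and 893. Leaving out 1 cell gave 980 to 1459 higher and 816 to 1198 lower, and leaving out CTL27 and Lactic31 together, also chosen after seeing the data, 1095 and 1179. The rule that named 30 genes by rank required the same sign without each cell and medians in the same order. Their sign in those settings was thus fixed beforehand and is no sign of stability. They also kept it in the other settings, and 29 stayed past 2-fold in every setting, the exception being Nudt4 at 0.76 over all 16 cells. Abcg1 changed sign, at 0.42 with the median of per-cell CPM plus 1 and 0.83 without CTL33, with a range of -1.57 to 0.83 over cells left out. Of 40 list medians with 3 or more genes tested, 15 kept their sign in every setting. No paired analysis was possible because the results come from no test and cell numbers tie no cell to another. With 1 sample per condition, differences between animals or cultures cannot be told apart from lactate.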

Other observations

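Of 25 tested immediate early and heat shock genes, 6 were at least 2-fold higher with lactate (15.6% of all genes) and 2 at least 2-fold lower (11.2%), with a median log2 ratio of -0.13. Jun, a subunit of the AP-1 transcription factor, had a ratio of 1.93 (1.52 to 2.37), and 2.86 without CTL35. Dusp1, a phosphatase that switches off MAP kinases, had 2.37 (1.95 to 2.82), 4.41 without CTL35, and a lactate cell was the higher in 40 of 42 pairs. In the whole cells Jun was at 0.61 and Dusp1 at -1.90. The chaperone Hsp90aa1 had -1.07 (-1.31 to -0.83), but -0.84 without CTL27 and -0.97 without CTL33, and 0.08 in the whole cells.

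Of 22 interferon-stimulated genes, 3 were at least 2-fold higher (15.6% of all genes) and 3 lower (11.2%). The transcription factor Irf1 had 9 counts in controls and 91 with lactate, a ratio of 3.07 (2.08 to 4.24) and 4.92 without CTL33, while Bst2, the membrane tether of budding virus, held 276 CPM in controls and 121 CPM with lactate, a ratio of -1.19. Of 22 apoptosis genes, 5 were higher and 2 lower, beside the same shares. The death receptor Fas had 1.30 (0.89 to 1.72), and the effector caspase Casp6 had -1.61 (-2.07 to -1.16). In the whole cells Fas was at -0.52, Casp6 at 0.66, Irf1 at -0.18 and Bst2 at -0.30. Of 16 Fc receptors and adaptors, 0 were higher and 3 lower, beside the same shares. Fcgr1, the high-affinity receptor for IgG, had 76 counts in controls and 12 with lactate, a ratio of -2.93 (-3.95 to -2.04), -1.97 without CTL28 and -3.73 without Lactic30, and -2.58 (-3.18 to -2.02) in the whole cells. The kinase Btk had -1.25 (-1.56 to -0.94), -0.92 without CTL28, and 0.17 in the whole cells.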
